A study of Mus musculus with 8 samples.

Results

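The enzymes that write and erase DNA methylation, with the cofactor that guides their maintenance arm, were followed as 7 genes in leukemic stem cells (LSCs) of chronic myeloid leukemia (CML) mice: the DNA methyltransferases Dnmt1, Dnmt3a and Dnmt3b, the maintenance cofactor Uhrf1, and the dioxygenases Tet1, Tet2 and Tet3. They were selected as a list of symbols, with no threshold on a measured value, and all 7 were among the 15576 genes of the deposited table. All 8 libraries came from bone marrow cells of C57BL/6 mice that, by the study's methods, carried both the BCR-ABL and the SCL-tTA transgene. In this model, by the study's account, withdrawal of tetracycline leads to expression of BCR-ABL in the stem cells. The 4 CML libraries were from untreated mice, and the 4 CML-TKI libraries were from CML mice given 400 mg/kg of the tyrosine kinase inhibitor imatinib (IM) by gavage on alternate days for 4 weeks, as the labels give it. The study's legend for the RNA-seq of these LSCs gives a lower dose than the labels, its methods give both, and which dose these mice received could not be settled. The labels give no age, and neither labels nor methods say that each library was a separate animal, so the p-values measure the spread between these samples, which may be technical. The CML columns are numbered 1, 2, 3 and 5, while the labels number the libraries without a 5, so CML 5 denotes the column of that name.

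Methylation of cytosine in CpG dinucleotides is placed on unmethylated DNA by Dnmt3a and Dnmt3b, the de novo enzymes. It is copied to the new strand after replication by Dnmt1, which Uhrf1 brings to hemimethylated sites. The Tet enzymes oxidize methylcytosine with 2-oxoglutarate and iron as cofactors, which opens the route to its removal through base excision repair or through dilution at replication. In blood stem cells DNMT3A and TET2 are known as genes that are recurrently mutated in clonal haematopoiesis and myeloid malignancy, and Dnmt1 is known to be needed for stem cell self-renewal.

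The 7 genes lie on 7 chromosomes, which are given here in GRCm38 coordinates. Dnmt1 is at chr9:20907206-20959888 and Tet1 at chr10:62804570-62887469, both on the minus strand. Dnmt3a is at chr12:3801559-3914443, Dnmt3b at chr2:153649411-153687730 and Uhrf1 at chr17:56303337-56323486, all on the plus strand. Tet2 is at chr3:133463677-133545136 and Tet3 at chr6:83362373-83457208, both on the minus strand. The RefSeq tables (GRCm38.p6) matched all 7 by symbol and gave 12 promoter windows, each from 250 bases before to 50 bases after a transcription start, out of 32817 windows of all genes. Letters of 4 kinds were searched on both strands, chosen after the sequences were read: TTTCGCGC (an E2F type), TTCNNNGAA (a STAT type), CCGGAAG (an ETS type) and GGGGCGGGG (an Sp1 type). The E2F letters occurred in 1 window each of Dnmt1 and Uhrf1, against 0.323% of all windows. The Sp1 letters occurred in 1 window each of Dnmt3a and Dnmt3b, against 11.4% of all windows. The STAT letters (8.29% of all windows) and the ETS letters (8.86%) were in none of the 12 windows. No match overlapped another, and a match of letters is a description of the window and not of binding. Because the letters were chosen after the sequences were read, the shares of all windows do not measure an enrichment. The windows of Dnmt1 (chr9:20952574-20952873, minus strand) and Uhrf1 (chr17:56304063-56304362, plus strand) are shown because the maintenance pair shared the E2F letters, in capitals at position -219 in Dnmt1 (on the opposite strand, as GCGCGAAA) and -185 in Uhrf1. That of Dnmt3b (chr2:153649199-153649498, plus strand) is shown because this gene passed the test below, with the Sp1 letters in capitals at position -55. That of Tet2 (chr3:133544341-133544640, minus strand) is shown for its CpG content, with each CpG in capitals. All read 5′ to 3′ along the gene.
Dnmt1: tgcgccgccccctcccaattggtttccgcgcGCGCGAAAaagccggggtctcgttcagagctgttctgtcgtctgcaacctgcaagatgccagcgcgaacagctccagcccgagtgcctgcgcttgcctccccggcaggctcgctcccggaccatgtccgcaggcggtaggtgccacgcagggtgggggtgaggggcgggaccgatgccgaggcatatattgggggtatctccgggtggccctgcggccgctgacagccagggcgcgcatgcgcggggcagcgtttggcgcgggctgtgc
Uhrf1: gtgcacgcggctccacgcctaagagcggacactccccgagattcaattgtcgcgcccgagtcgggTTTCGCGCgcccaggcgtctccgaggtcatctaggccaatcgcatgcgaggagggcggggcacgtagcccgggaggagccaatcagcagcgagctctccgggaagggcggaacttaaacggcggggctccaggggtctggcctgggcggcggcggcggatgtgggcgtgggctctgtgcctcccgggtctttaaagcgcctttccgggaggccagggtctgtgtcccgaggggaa
Dnmt3b: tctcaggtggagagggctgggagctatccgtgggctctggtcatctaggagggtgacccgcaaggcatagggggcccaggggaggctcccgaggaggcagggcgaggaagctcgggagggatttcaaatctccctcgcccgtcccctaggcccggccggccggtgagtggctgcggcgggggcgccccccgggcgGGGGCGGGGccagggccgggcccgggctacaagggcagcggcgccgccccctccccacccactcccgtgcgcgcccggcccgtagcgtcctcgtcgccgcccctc
Tet2: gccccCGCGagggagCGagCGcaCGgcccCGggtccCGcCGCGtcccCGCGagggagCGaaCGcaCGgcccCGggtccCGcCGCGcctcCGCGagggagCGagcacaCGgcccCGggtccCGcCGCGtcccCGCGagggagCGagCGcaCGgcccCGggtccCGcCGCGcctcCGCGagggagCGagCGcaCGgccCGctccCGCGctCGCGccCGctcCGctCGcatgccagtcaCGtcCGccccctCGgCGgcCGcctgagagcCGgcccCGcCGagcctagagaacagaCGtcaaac
The Tet2 window held 57 CpGs, more than 99.8% of all windows, whose median was 7 (quartiles 3 and 20). Dnmt3a held 46, 47 and 18 CpGs in its 3 windows, Dnmt1 held 2, 12 and 33, Uhrf1 held 12 and 33, Dnmt3b held 30, Tet3 held 22 and Tet1 held 17. CpG content differed widely among the windows of Dnmt1 and of Dnmt3a and is therefore given per window.

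Total counts ranged from 4939644 to 8620101 in CML and from 1041552 to 5104268 in CML-TKI. The floor, set at 3 counts and covering counting error only, was between 0.409 and 0.580 CPM in CML and between 0.570 and 3.29 CPM in CML-TKI, where CML-TKI 3 was the least deep. CPM is a gene's count scaled to the library's total, here after TMM normalization. Of the libraries, 3 stood apart. The first was CML 5, which differed from CML 1 to 3 by a coefficient of variation of 37.9 to 40.5% per gene, against 8.73 to 12.3% among CML 1 to 3. The second was CML-TKI 1, which lay at -19.2 on the first principal component between the CML libraries (-74.4 to -69.3) and the other CML-TKI libraries (70.1 to 118.8). The third was CML-TKI 3, which lay at -113.7 on the second component against 1.02 to 74.5 in the other CML-TKI libraries, and whose summed erythroid markers were at 24109 CPM against 51.3, 65.4 and 488.0 CPM in CML-TKI 1, 2 and 4. CML-TKI libraries differed among themselves by 51.3 to 88.9%. CML 5 also differed with transcript length. Relative to the mean of CML 1 to 3, the median log2 difference of its genes was 0.47 over the shortest quartile by exonic length (2826 genes, up to 2.20 kb) and -0.55 over the longest quartile (2825 genes, from 5.10 kb), whereas in CML 1, 2 and 3 these medians lay between -0.020 and 0.021. In the CML-TKI libraries the median lay between -0.17 and 0.12 over the shortest quartile and between -0.27 and -0.067 over the longest quartile. In CML-TKI 3 the longest quartile (-0.15) was not below the shortest (-0.17). Dnmt1, Dnmt3a, Tet1, Tet2 and Tet3 belong to the longest quartile, and Dnmt3b and Uhrf1 to the third. For the sort, the labels name LSK Flt3- cells that are CD150- and CD48+, while the study's legends define LSCs as CD48- and CD150+. Slamf1, which encodes CD150, was at 32.4 ± 3.74 CPM (SD, n = 4) in CML and 3.33 ± 2.74 CPM in CML-TKI LSCs, and Cd48 was at 5.05 ± 1.24 and 103.3 ± 56.9 CPM, so in the CML libraries the transcripts were high and low in the opposite way to the labelled gate, and in the CML-TKI libraries in the opposite way to the study's definition. LSCs is used here as the study's name for both. Kit was at 938 ± 120 CPM in CML and 248 ± 44.2 CPM in CML-TKI LSCs. The log2 fold changes were -3.42 for Slamf1 (edgeR adjusted p = 0.00797), 4.35 for Cd48 (edgeR adjusted p = 8.70e-04) and -1.92 for Kit (edgeR adjusted p = 8.70e-04). Genes of the sort thus differed clearly between the groups. Ly6a, which encodes Sca1, was at 35.9 ± 2.72 and 16.0 ± 19.1 CPM, with a log2 fold change of -1.12 (edgeR adjusted p = 0.373) that became -2.52 (edgeR adjusted p = 0.0117) without CML-TKI 1. Flt3, which the sort should exclude, was at 16.5 ± 0.79 and 25.8 ± 25.3 CPM.

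The comparison of the series asks which transcripts differ between LSCs of IM-treated and untreated CML mice. Among the writers and erasers the de novo methyltransferase Dnmt3b fell 5.52-fold in CML-TKI LSCs, and it was the only one of the 7 past the threshold of an adjusted p under 0.05 in edgeR's quasi-likelihood test. For Dnmt3a all 4 CML-TKI libraries lay under the 4 CML libraries, and for Tet2 all 4 lay above them, but neither gene passed that threshold. Dnmt1, Uhrf1 and Tet3 had values that overlapped between the groups, and Tet1 overlapped only through CML 5. Thus 1 of the 7 members (14.3%) was called, against 10.2% of the 11937 genes tested, with 3.93% called lower and 6.29% called higher. Groups without overlap were seen for 3 of the 7 (42.9%), against 23.4% of all genes tested, of which 13.1% were lower and 10.3% higher in CML-TKI. A share of 1 in 7 is near the background, so the count is no result about the members as a group.

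**Figure D1:**
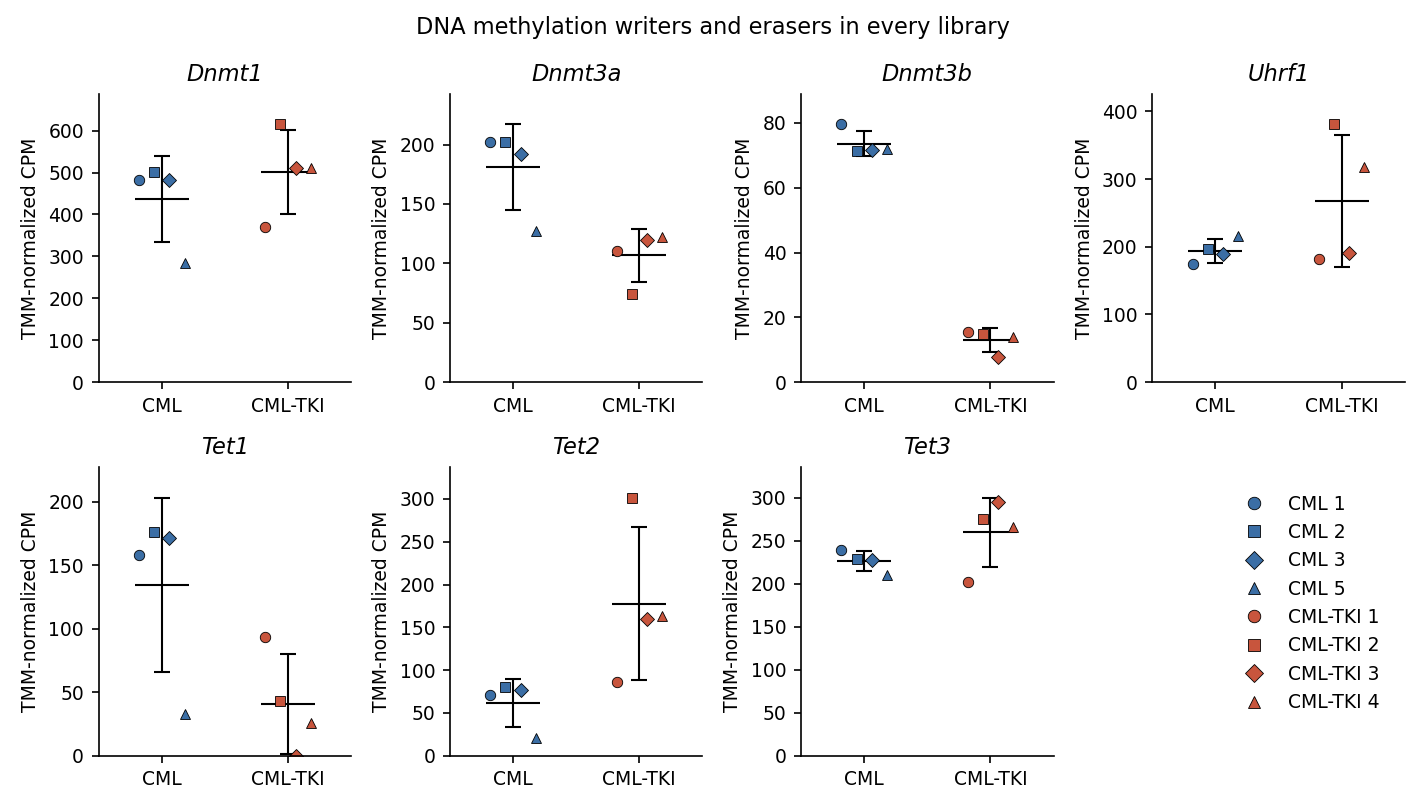
TMM-normalized CPM of the 7 genes (vertical axis, from 0) in each of the 4 CML and 4 CML-TKI libraries, with the mean as a horizontal line and the SD as error bars. Dnmt3b lay between 71.2 and 79.5 CPM in CML and between 7.67 and 15.6 CPM in CML-TKI, and CML 5 (blue triangle) lay below the other CML libraries for Dnmt1, Dnmt3a, Tet1, Tet2 and Tet3.

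Dnmt3b, which methylates unmethylated CpGs and is best known from early development, was at 79.5, 71.2, 71.7 and 72.0 CPM in CML 1, 2, 3 and 5, and at 15.6, 14.9, 7.67 and 13.8 CPM in CML-TKI 1 to 4. The 4 CML libraries lay close together, and the highest CML-TKI library lay far under the lowest of them. The mean was 73.6 ± 3.95 CPM in CML and 13 ± 3.61 CPM in CML-TKI LSCs (SD, n = 4 each), a log2 fold change of -2.46 (SE 0.27, 95% interval -3.06 to -1.87, edgeR adjusted p = 8.70e-04). CML 5 was within the range of the other CML libraries, CML-TKI 1 was the highest of its group by a small margin and CML-TKI 3 was the lowest. Without CML-TKI 3 the log2 fold change was -2.31 (edgeR adjusted p = 0.00243). Dnmt3b passed the threshold under all 20 alternatives of test, scaling, filter, depth and libraries that were run, with a log2 fold change between -2.58 and -2.28. Its size lay above that of 93.4% of all genes tested. In CML-TKI 3 the level rested on 7 counts.

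Dnmt3a, the other de novo enzyme, was at 202.1, 202.1, 192.3 and 127.4 CPM in CML 1, 2, 3 and 5, and at 110.5, 74.4, 119.5 and 122.3 CPM in CML-TKI 1 to 4. The groups did not overlap, but CML 5 came within a few CPM of the highest CML-TKI library. The means were 181.0 ± 36.0 and 106.7 ± 22.1 CPM, a log2 fold change of -0.76 (SE 0.24, 95% interval -1.30 to -0.23), and the unadjusted p of 0.0102 became 0.0756 after Benjamini-Hochberg adjustment in edgeR. Without CML 5 the CML mean was 198.8 ± 5.66 CPM (n = 3) and the log2 fold change of -0.91 passed the threshold (edgeR adjusted p = 0.0393). It passed as well in DESeq2 (-0.78, adjusted p = 0.0185) and in limma-voom with quality weights (-0.90, adjusted p = 0.00712). It did not pass in 15 of 20 alternatives, among them without CML-TKI 2 (-0.63) and without CML 1 (edgeR adjusted p = 0.208), and the adjusted p reached 0.467 with CML 1 to 3 summed. Reads of the antisense gene Dnmt3aos could not be told apart from those of Dnmt3a where they overlap, as no strand setting of the counting was given, and the counts are per gene and do not separate the long and short Dnmt3a isoforms.

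Between the de novo enzymes the ratio differed without overlap of the groups. The ratio of Dnmt3a to Dnmt3b, in counts per kb of exonic length, was 1.11, 1.24, 1.17 and 0.772 in CML 1, 2, 3 and 5, and 3.10, 2.18, 6.80 and 3.87 in CML-TKI 1 to 4. The transcripts were thus at about equal levels per length in CML LSCs, and Dnmt3a was the more abundant in every CML-TKI library. This ratio is taken within a library and does not depend on the scaling between libraries. It is not free of differences that go with transcript length, as Dnmt3a belongs to the longest quartile and Dnmt3b to the third. CML 5, in which long transcripts were lower, had the lowest ratio, and the part of length was not tested. The ratio of 6.80 in CML-TKI 3 rested on 7 counts of Dnmt3b.

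Dnmt1, the maintenance methyltransferase, was at 482.6, 501.3, 481.8 and 284.6 CPM in CML 1, 2, 3 and 5, and at 370.6, 614.8, 511.8 and 511.5 CPM in CML-TKI 1 to 4. Each group held one low library, CML 5 and CML-TKI 1, and the groups overlapped. The means of 437.6 ± 102.4 and 502.2 ± 100.3 CPM gave a log2 fold change of 0.20 (SE 0.25, 95% interval -0.35 to 0.75, edgeR adjusted p = 0.665). Without those libraries the CML mean was 488.6 ± 11 CPM and the CML-TKI mean 546.0 ± 59.6 CPM (n = 3 each). A change of Dnmt1 was not detectable with this spread, and the interval excludes a fall or a rise as large as that of Dnmt3b. The ratio of Dnmt1 to Dnmt3a per kb was 3.51 to 3.94 in CML and 5.27 to 13 in CML-TKI libraries, without overlap.

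Uhrf1, the cofactor that reads hemimethylated CpGs, was at 174.0, 197.1, 189.2 and 215.3 CPM in CML 1, 2, 3 and 5, and at 182.0, 380.9, 190.7 and 317.9 CPM in CML-TKI 1 to 4. CML-TKI 2 and 4 were above all CML libraries, and CML-TKI 1 and 3 were within their range. The log2 fold change was 0.47 (SE 0.27, 95% interval -0.13 to 1.07, edgeR adjusted p = 0.308), from 193.9 ± 17.2 to 267.9 ± 97.7 CPM. The ratio of Uhrf1 to Dnmt1 per kb overlapped between the groups, at 0.620 to 1.30 in CML and 0.640 to 1.07 in CML-TKI. Genes of S phase and cell division, where Uhrf1 and Dnmt1 are known to be expressed most, were counted beside the pair. Of 17 such genes 2 rose and none fell, against 6.29% of all genes tested called higher and 3.93% called lower. These were Rrm2 (log2 fold change 2.13, edgeR adjusted p = 0.00380) and Ccne1 (1.97, 0.00627), which were named after their values were seen. The summed level of the 17 was 3373, 3465, 3301 and 2741 CPM in CML 1, 2, 3 and 5, and 3433, 5484, 4467 and 5042 CPM in CML-TKI 1 to 4. CML-TKI 2 and 4, with the highest Uhrf1, had the highest sums, and the part of cycling in the Uhrf1 level was not tested.

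**Figure D2:**
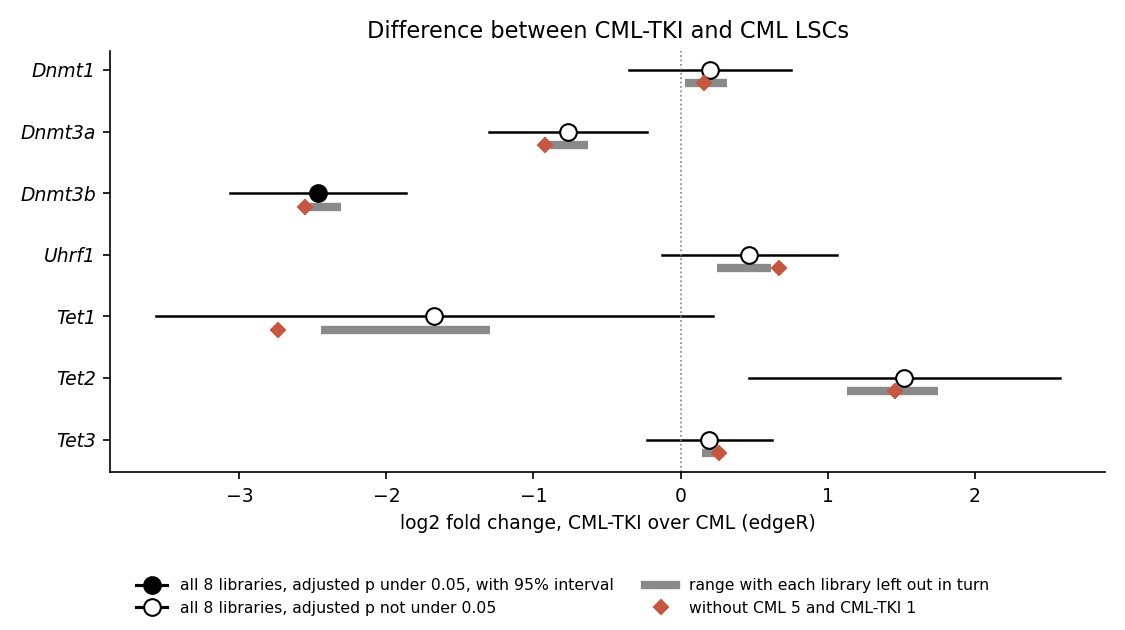
Log2 fold change of CML-TKI over CML for the 7 genes (horizontal axis), with the 95% interval from edgeR as thin lines, the range with each library left out in turn as grey bars, and the value without CML 5 and CML-TKI 1 as diamonds. The filled circle marks Dnmt3b, at -2.46, and the widest interval is that of Tet1, from -3.57 to 0.22.

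Tet1, the dioxygenase best known from embryonic stem cells and primordial germ cells, was at 158.2, 176.0, 171.4 and 32.4 CPM in CML 1, 2, 3 and 5, and at 93.8, 42.8, 0 and 25.8 CPM in CML-TKI 1 to 4. CML 5 lay within the range of the CML-TKI libraries, and CML-TKI 1 was the highest of its group. In CML-TKI 3 no count was seen, which allows up to 3.29 CPM. The means were 134.5 ± 68.5 and 40.6 ± 39.6 CPM, and the log2 fold change of -1.67 (SE 0.85, 95% interval -3.57 to 0.22, edgeR adjusted p = 0.251) did not pass the threshold. It did not pass without CML 5 alone (-2.0, edgeR adjusted p = 0.198) or without CML-TKI 1 alone (-2.44, edgeR adjusted p = 0.0719). Without both CML 5 and CML-TKI 1, an alternative chosen after seeing the data, the means were 168.6 ± 9.23 and 22.8 ± 21.5 CPM (n = 3 each), and the log2 fold change of -2.74 passed (edgeR adjusted p = 0.0415). Without CML-TKI 3 it was -1.30 (edgeR adjusted p = 0.226).

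Tet2, the eraser most often mutated in myeloid disease, was at 71.2, 79.9, 76.3 and 20.3 CPM in CML 1, 2, 3 and 5, and at 86.6, 301.2, 160.0 and 163.4 CPM in CML-TKI 1 to 4. The groups did not overlap, although CML-TKI 1 exceeded CML 2 only slightly. The means were 62.0 ± 28 and 177.8 ± 89.6 CPM, a log2 fold change of 1.52 (SE 0.47, 95% interval 0.47 to 2.58), with an unadjusted p of 0.00925 and an adjusted p of 0.0719 in edgeR. Without CML-TKI 1 it passed (1.75, edgeR adjusted p = 0.0223), as it did without both CML 5 and CML-TKI 1 (1.46, edgeR adjusted p = 0.0125), in DESeq2 (1.51, adjusted p = 0.0125) and in limma-voom (1.21, adjusted p = 0.0133). It did not pass in the other 16 of 20 alternatives, among them without CML-TKI 2 (1.13, edgeR adjusted p = 0.170) and with CML 1 to 3 summed (edgeR adjusted p = 0.267, the highest). CML 5, in which long transcripts were lower as a class, differed from the mean of CML 1 to 3 by -1.87 for Tet2 and -2.36 for Tet1 on the log2 scale, but by only -0.14 for Tet3, whose exonic length of 11.7 kb lies between those of Tet2 (9.20 kb) and Tet1 (14.4 kb). The part of transcript length in these values was not tested.

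Tet3, the remaining dioxygenase, varied least of the erasers within each group relative to its mean. It was at 238.7, 228.9, 227.5 and 210.6 CPM in CML 1, 2, 3 and 5, and at 202.3, 275.8, 294.8 and 265.9 CPM in CML-TKI 1 to 4. CML-TKI 1 was the lowest of the 8 libraries and the other CML-TKI libraries were the highest. The means of 226.4 ± 11.7 and 259.7 ± 40.1 CPM gave a log2 fold change of 0.20 (SE 0.19, 95% interval -0.23 to 0.62, edgeR adjusted p = 0.563). The ratio of Tet2 to Tet3 per kb was 0.381, 0.445, 0.428 and 0.123 in CML 1, 2, 3 and 5, and 0.546, 1.39, 0.692 and 0.784 in CML-TKI 1 to 4. Tet2 was thus below Tet3 per length in all CML libraries and in 3 of the 4 CML-TKI libraries, and the groups did not overlap. Against Tet1, Tet3 was 1.59 to 7.95 times as high per kb in CML and 2.64 to 12.6 times as high in the 3 CML-TKI libraries with a Tet1 count.

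**Figure D3:**
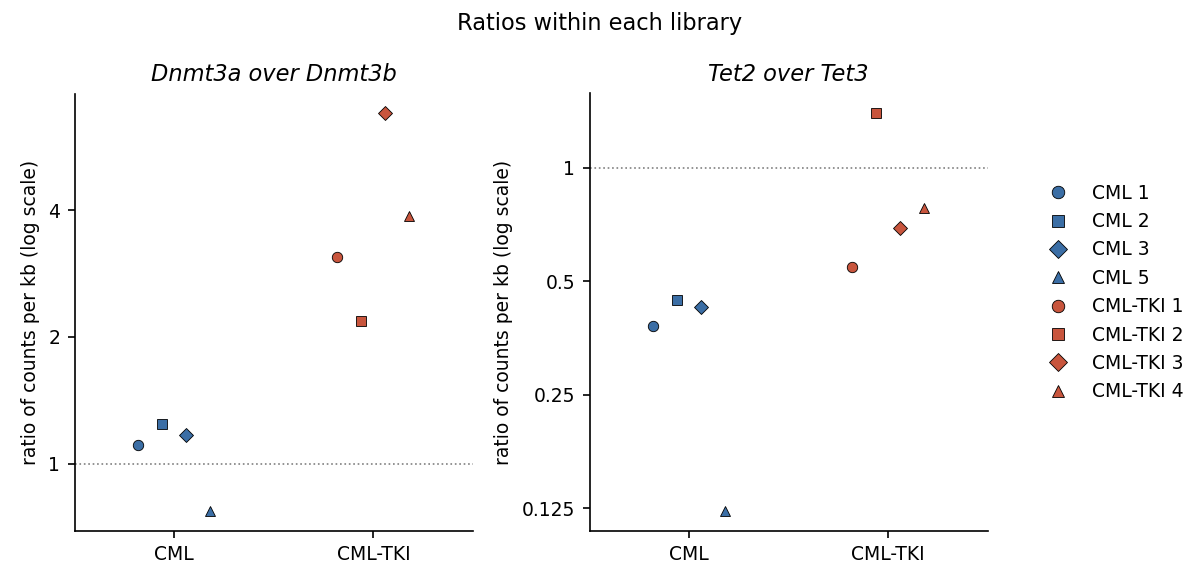
Ratios of Dnmt3a to Dnmt3b (left) and of Tet2 to Tet3 (right) within each library, in counts per kb of exonic length, on a log axis with the dotted line at 1. Neither ratio overlapped between the groups and both were higher in CML-TKI, with Dnmt3a over Dnmt3b from 0.772 to 1.24 in CML and from 2.18 to 6.80 in CML-TKI. The value of 6.80, in CML-TKI 3, rested on 7 counts of Dnmt3b.

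Per length, the order of the 7 transcripts differed between the groups. In RPKM, here the TMM-normalized CPM divided by the exonic length in kb, Dnmt1 (69.4 ± 16.2) and Uhrf1 (52.9 ± 4.68) were highest in CML LSCs. Tet3 (19.3 ± 0.99), Dnmt3a (18.3 ± 3.63) and Dnmt3b (17.0 ± 0.91) followed, and Tet1 (9.36 ± 4.76) and Tet2 (6.73 ± 3.04) were lowest (SD, n = 4). In CML-TKI LSCs Dnmt1 (79.7 ± 15.9) and Uhrf1 (73.0 ± 26.6) again came first. They were followed by Tet3 (22.1 ± 3.42), Tet2 (19.3 ± 9.73) and Dnmt3a (10.8 ± 2.23), while Dnmt3b (3.0 ± 0.84) and Tet1 (2.82 ± 2.76) were lowest. Neighbours within each of these 3 tiers overlapped in their library values, and the tiers themselves did not overlap at the step from one to the next. Dnmt3b was thus in the middle tier of CML and in the lowest tier of CML-TKI LSCs. Tet2 was in the lowest tier of CML and in the middle tier of CML-TKI LSCs, a difference that did not pass the test (edgeR adjusted p = 0.0719). Exonic length was the union of all basic coding transcripts, so the level of a gene that uses a short isoform is understated.

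The transcripts most like each member over the 8 libraries are given by Pearson's r of log2 CPM, as a description in which the libraries share group, depth and normalization. Dnmt3b was most like 4921531C22Rik (r = 0.993) and Rftn1 (0.992), and Dnmt3a most like Numa1 (0.979) and Ncoa2 (0.978). Dnmt1 was most like Mbnl1 (0.991) and Map3k20 (0.989), and Uhrf1 most like Dhdds (0.988) and Nagpa (0.974). Tet1 was most like Zfp81 (0.990) and F630111L10Rik (0.989), Tet2 most like Gm1966 (0.991) and Nsd3 (0.985), and Tet3 most like Pip4k2a (0.985) and Fkbp5 (0.974). Among the members themselves, Dnmt1 and Tet2 (r = 0.88), Tet2 and Tet3 (0.76), Dnmt1 and Tet3 (0.75) and Dnmt3a and Dnmt3b (0.75) were most alike, while Dnmt1 and Uhrf1 were at 0.43. Tet2 was most unlike Dnmt3b, at -0.71.

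The other genes of the pathway were grouped by role. Of 77 listed symbols, 74 were in the table and 69 were tested, of which 2 rose and 1 fell (4.35%, against 10.2% of all genes tested), with a median log2 fold change of -0.024 against -0.00026 over all genes. Of the 69, 12 had an unadjusted p under 0.05, against 25.7% of all genes tested. The groups did not overlap for 5 that were higher and 5 that were lower in CML-TKI, against 23.4% of all genes in either direction, so both shares were below the background. No gene passed among the 10 tested partners of the writers, such as Usp7 and Hells (median -0.16), the 9 methyl-CpG readers, such as Mbd2 (median -0.024), the 11 genes of the S-adenosylmethionine cycle that supplies the methyl group (median -0.038), and the 11 histone methylation genes linked to DNA methylation (median -0.039). Dnmt3l, the catalytically inactive partner of the de novo enzymes, Cxxc4, Wt1, Mat1a and Gnmt were too low to test. Bhmt and Whsc1 had no row under those symbols, and Whsc1 is an older symbol of Nsd2, which was tested.

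Idh1, the cytosolic enzyme that makes 2-oxoglutarate, the cosubstrate of the Tet enzymes, rose in CML-TKI LSCs. It was the only one to pass of 14 tested genes listed as 2-oxoglutarate enzymes (list median 0.063). That list also held the succinate dehydrogenase and fumarase genes Sdha, Sdhb, Sdhc, Sdhd and Fh1. Idh1 was at 17.6, 13.7, 19.7 and 14.3 CPM in CML 1, 2, 3 and 5, and at 30.6, 117, 126.0 and 90.8 CPM in CML-TKI 1 to 4. CML-TKI 1 was nearest to the CML libraries. The log2 fold change was 2.47 (SE 0.42, edgeR adjusted p = 0.00608), and it lost the threshold in 3 of 20 alternatives (edgeR adjusted p up to 0.123). Of the 14 tested Tet partners and base excision genes, Gadd45b rose and Cxxc5 fell (list median 0.055). The share called was 14.3% in this list and 7.14% in the 2-oxoglutarate list, against 10.2% of all genes tested. Both are near that background, so the counts are no result about the lists. Gadd45b, a stress-induced gene linked to active demethylation, was at 2.92 ± 1.19 CPM in CML and 12.2 ± 4.64 CPM in CML-TKI LSCs (log2 fold change 2.05, SE 0.54, edgeR adjusted p = 0.0413). It lost the threshold in 12 of 19 alternatives, among them without CML 1, 2, 3 or 5 and without CML-TKI 1 or 2, each left out alone (adjusted p up to 0.135, and up to 0.367 over all 19). Cxxc5, a CXXC zinc finger protein known to bind Tet2, was at 86.2, 93.4, 102.6 and 127.6 CPM in CML 1, 2, 3 and 5, and at 42.9, 3.41, 13.2 and 21.9 CPM in CML-TKI 1 to 4 (log2 fold change -2.29, SE 0.58, edgeR adjusted p = 0.0340). It lost the threshold in 9 of 20 alternatives, among them without any single CML library and without CML-TKI 3 or 4 (adjusted p up to 0.0890, and up to 0.197 over all 20), and its log2 fold change was -2.99 without CML-TKI 1.

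**Figure D4:**
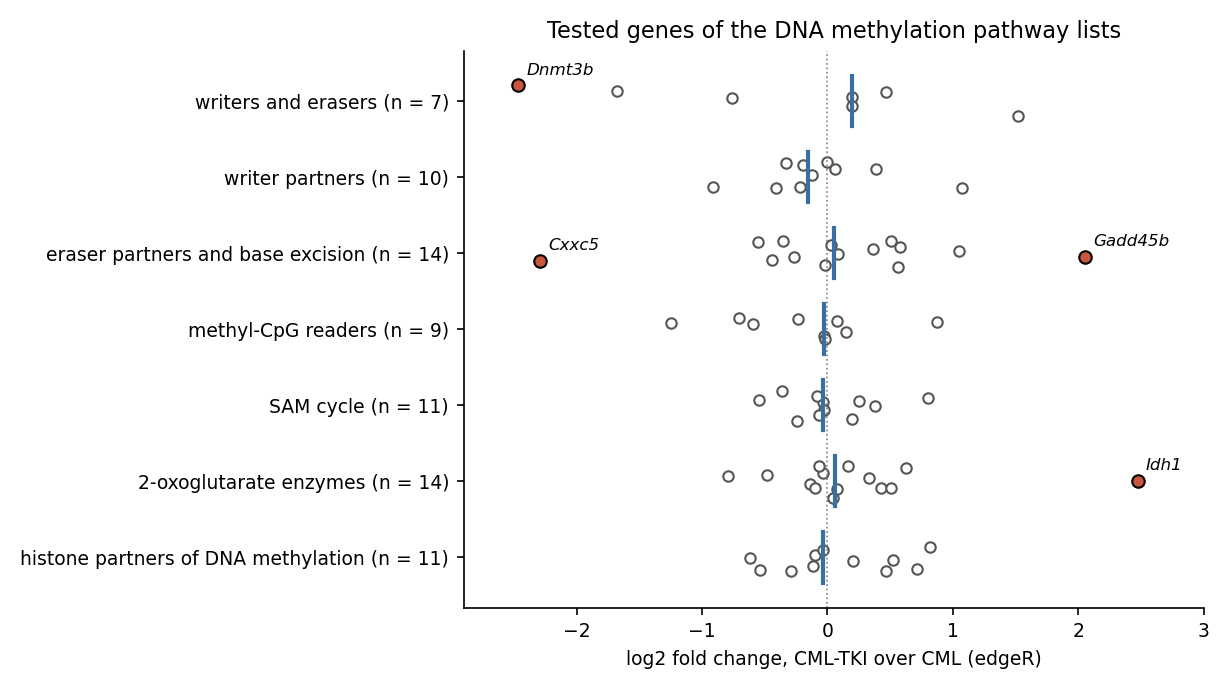
Log2 fold change of CML-TKI over CML for every tested gene of the DNA methylation lists (circles, with a random vertical offset), with list medians as vertical bars. Filled circles are the genes past the adjusted p threshold, which were Dnmt3b, Cxxc5, Gadd45b and Idh1.

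Markers of other cell types moved with the groups. The counts called below stand against 3.93% of all genes tested called lower and 6.29% called higher. In bulk samples fewer cells of a type and less RNA per cell cannot be told apart. Of 11 tested HSC markers 6 fell and none rose, and their summed level was 2338, 2217, 2335 and 1839 CPM in CML 1, 2, 3 and 5, and 602.5, 71.3, 190.7 and 219.8 CPM in CML-TKI 1 to 4. Of 14 tested granulocyte markers 13 rose, from sums of 167.0 to 281.8 CPM in CML to 1530, 8324, 8262 and 8683 CPM in CML-TKI 1 to 4, and all 11 monocyte and macrophage markers rose, from 255.9 to 333.0 CPM to between 1729 and 8563 CPM. Of 7 megakaryocyte markers 2 fell (Itga2b and Gp9), from sums of 1223 to 1485 CPM to between 48.7 and 599.9 CPM. Of 6 tested erythroid markers 1 rose (Slc4a1), with sums of 95.1 to 147.8 CPM in CML and 51.3, 65.4, 24109 and 488.0 CPM in CML-TKI 1 to 4, so that CML-TKI 3 alone carried the high end. No lymphoid marker passed the filter on low counts. Their sums were 1.92 to 3.54 CPM in CML, with Cd3e, Cd3g and Dntt at 0 in all CML libraries, and 10.8, 20.1, 271.8 and 53.6 CPM in CML-TKI 1 to 4. Of the basophil and mast cell markers 1 was tested and rose, and Mcpt8 was at 0 in all CML libraries. Their sums were 2.06 to 4.05 CPM in CML and 118.1, 204.2, 4.38 and 1164 CPM in CML-TKI 1 to 4, highest in CML-TKI 4 and near the CML level in CML-TKI 3. Dnmt3b was at 15.6 CPM in CML-TKI 1, the library with the most HSC marker RNA of its group, and at 14.9 CPM in CML-TKI 2, the library with the least. It was at 7.67 and 13.8 CPM in CML-TKI 3 and 4. In the CML libraries, whose HSC sums were all higher, Dnmt3b was at 71.2 to 79.5 CPM. Tet1 was at 93.8, 42.8, 0 and 25.8 CPM and Tet2 at 86.6, 301.2, 160.0 and 163.4 CPM in CML-TKI 1 to 4. The part of cell composition in the values of the 7 genes was not tested.

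**Figure D5:**
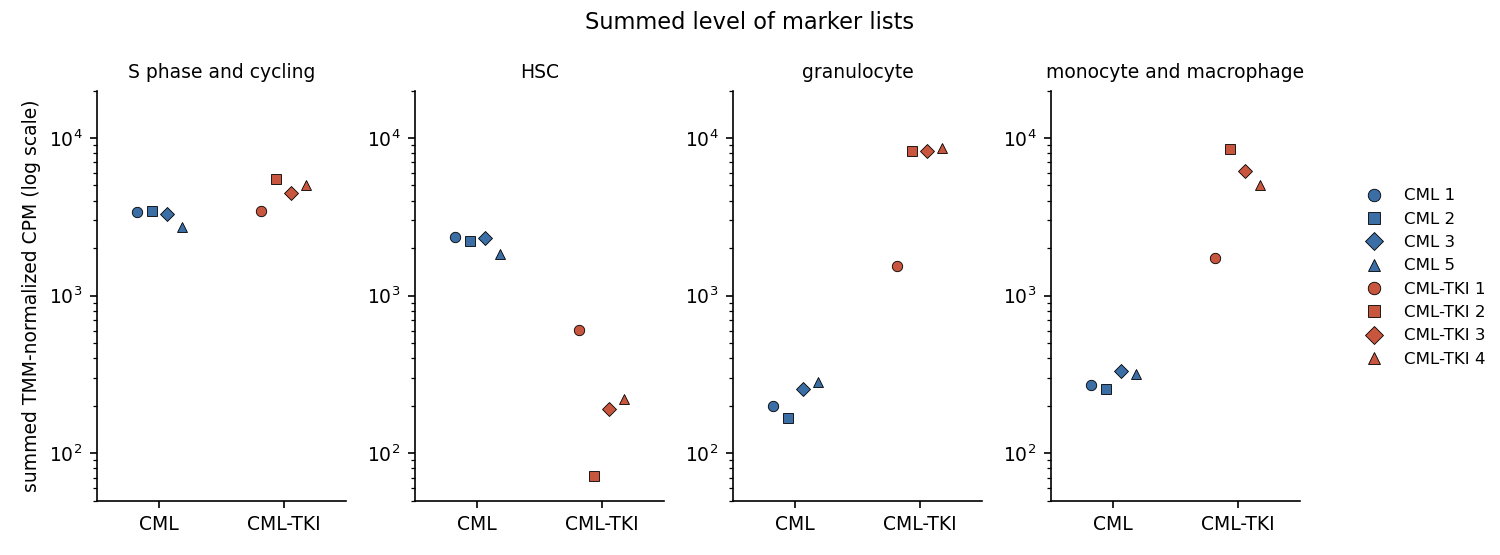
Summed TMM-normalized CPM of 4 marker lists in each library, on a log axis. HSC markers were lower and granulocyte and monocyte markers higher in all 4 CML-TKI libraries, with CML-TKI 1 (red circle) nearest to the CML libraries.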

How the data were processed

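RNA was isolated with the RNeasy Plus kit, Nextera XT libraries were made, and paired reads were aligned to mm10 with STAR 2.6.1d and quantified to RefSeq transcripts in Partek Flow (Partek 8.0 in the submitters' processing notes). The values deposited by the authors are estimated counts per gene, not normalized, with 1 column per library. They do not separate isoforms, and strand use is not given in the sources used here. Columns were matched to samples by group and number, except that CML 5 was taken as CML with no number.

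Estimated counts were rounded to whole numbers. All 11937 genes kept by filterByExpr (minimum count 10, minimum total 15) were fitted with edgeR 4.0.16 in R 4.3.3 (TMM, robust quasi-likelihood test), with Benjamini-Hochberg adjustment over all of them with calls made at 0.05. Each SE was obtained as the absolute log2 fold change over the square root of F, and log2 CPM has a prior count of 2. Alternatives were DESeq2 1.42.0, limma-voom with quality weights (limma 3.58.1), other scalings and filters, thinning to the smallest library, a replicate block, and leaving out or summing libraries. The fits were tested on simulated counts. Exonic lengths came from GENCODE M21 and covered 94.7% of the genes tested.

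The members, lists and tests were chosen with earlier results of these data known. Genes named were the 7 members, pathway genes past the threshold, the gate genes and the 2 transcripts most like each member. Other genes named were list examples or were chosen after their values were seen. CML 1 to 3 were counted separately because the labels give them as separate samples. They differed by more than sampling noise, as separate preparations of 1 sample also would, and a fit with them summed is among the alternatives. The ChIP-seq, K562 and metabolite experiments were not analysed here.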

Additional observations from a re-analysis of the deposited data

Results flagged for a closer look

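Within the 4 CML libraries, 1 library lay far from the other 3, against the spread of the group (Dixon's test at 95%), in 8 of the 23 sets of 4 values tested over genes, ratios and both groups, where chance gives 1.15. CML 5 was the lowest for Dnmt1 (284.6 CPM), Dnmt3a (127.4 CPM), Tet1 (32.4 CPM) and Tet2 (20.3 CPM). Its ratio of Tet2 to Tet3 was the lowest, at 0.123, and its ratios of Tet3 to Tet1 (7.95) and of Uhrf1 to Dnmt1 (1.30) were the highest. CML 1 was the highest for Dnmt3b, at 79.5 CPM, only because CML 2, 3 and 5 lay within 71.2 to 72.0 CPM. No CML-TKI library was far from its group by this test.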

How the results depend on the processing

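None of the 7 genes changed sign in any of 20 alternatives, and Dnmt3b passed the threshold in all of them. The number of members called was 1 in the reported fit, 3 in DESeq2, 3 in limma-voom, 2 with total counts without Rn45s, 4 without CML 5 and CML-TKI 1, and 1 to 2 when single libraries were left out. The number of genes called, 1220, became 2157 in DESeq2, 2563 in limma-voom, 122 with CML 1 to 3 summed, 2362 without CML 5 and CML-TKI 1, and 505 to 2504 when single libraries were left out: 505, 552, 570 and 808 without CML 1, 2, 3 and 5, and 2504 without CML-TKI 1. Of the pathway genes, 3 called, the count was 7 in DESeq2, 10 in limma-voom, 0 with CML 1 to 3 summed, 7 without CML 5 and CML-TKI 1, and 1 to 4 with each library left out, with 1 without any single CML library.

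The numbers shared by the groups are not known to pair animals. Deviations of same-numbered libraries correlated at -0.042, 0.097 and 0.093. CML-TKI 2 and 3 correlated best with CML 2 and 3, whereas CML-TKI 1 correlated best with CML 3 (0.099). Correlations this small cannot decide whether the libraries were paired. No pairing was assumed because the labels give none. With a replicate block over CML and CML-TKI 1 to 3, 193 genes, 1 member (Dnmt3b, edgeR adjusted p = 0.0482) and 0 pathway genes were called, against 589, 1 and 0 over the same libraries without the block. The log2 fold change of Flt3 ranged from -0.34 (without CML-TKI 4) to 0.96 (without CML-TKI 2) when single libraries were left out, against 0.65 in the reported fit, and turned to -0.37 with the replicate block and to -0.30 over those libraries without it.

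The share of higher calls, 61.6%, was 48.7% in limma-voom, 51.9% with total counts without Rn45s, 46.8% without CML-TKI 1 and 51.9% without CML 5 and CML-TKI 1, and it was 83.6% with CML 1 to 3 summed, 77.7% with the replicate block, 72.1% without CML 1 and 71.2% without CML 3. The median of all genes shifted to -0.11 in limma-voom, -0.12 with total counts without Rn45s and -0.13 with the block. The cause of these differences was not tested. CML-TKI 3 had the fewest counts, and its floor of 3.29 CPM was the highest.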
